A study of Homo sapiens with 45 samples.

Results

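The mitochondrial genome of HAP1 cells was followed through all of its genes, chosen as every gene whose symbol starts with MT-. There were 37 of them among 60676 genes in the count table: 13 mRNAs, 2 rRNAs and 22 tRNAs. The 25 with a mean raw count of at least 10 over the libraries are described here: all 13 mRNAs, both rRNAs and 10 tRNAs. Just inside that limit stood MT-TQ and MT-TT, with means of 10.27 and 12.2 counts, and just outside it MT-TE and MT-TV, with 7.51 and 7.09. All 25 passed the filter on low counts, as did MT-TV, MT-TH and MT-TE, so 28 were tested and 9 were not. The lowest of all was MT-TK, the lysine tRNA, with 0 counts in every library.

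HAP1 is a near-haploid human cell line, and polyA RNA was sequenced in 45 libraries, 3 in each of 15 groups. The untreated and azacytidine (azaC) groups each covered 6 genotypes. AAVS1 is the reference line here, ZNF598 KO, GCN2 KO and RNF25 KO are knockouts of 1 gene, RNF25 GCN2 DKO lacks both of those genes by its label, and eS31 K113R carries a point mutation. Azacytidine, a cytidine analogue, was given at 5 uM for 4 h, and halofuginone (HF), an inhibitor of cytosolic prolyl-tRNA synthetase, at 25 nM for 4 h to AAVS1, RNF25 KO and GCN2 KO only. The ubiquitin ligases ZNF598 and RNF25 modify stalled ribosomes, the kinase GCN2 senses uncharged tRNA, and eS31 belongs to the small cytosolic ribosomal subunit. Each genotype was a single line as far as the labels tell, so the edit and the history of the line cannot be told apart. The libraries are labelled as biological replicates with nothing more, so p-values measure the spread between these libraries, which may be technical. In bulk RNA, fewer genome copies, less RNA per copy and a change in capture cannot be told apart.

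Mitochondrial DNA is a small circle read on both strands into long precursors, which are cut apart largely at the tRNAs. The heavy-strand unit carries both rRNAs, most tRNAs and every mRNA but MT-ND6, while the light-strand unit carries MT-ND6 and the other tRNAs and meets MT-TP before any other gene. The mRNAs encode core subunits of respiratory complexes I, III, IV and V, and nuclear genes supply the remaining subunits and the whole expression machinery. Mitochondrial mRNAs, other than MT-ND6, mostly carry polyA tails, and the rRNAs carry short ones, so a polyA library samples these RNAs unevenly.

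The sequences below are those of MT-TP, MT-TM and MT-ND6, which were called in some comparisons, with MT-TS1 and MT-ND5, which were called in none, to set the strands side by side. They come from the GENCODE 29 transcripts (GRCh38), written 5′ to 3′ as transcribed. Capitals in the tRNA genes and in the 60-base starts of MT-ND6 and MT-ND5 mark G, to show how the light-strand transcripts differ in composition from the heavy-strand ones.
MT-TP, light-strand unit, chrM:15956-16023: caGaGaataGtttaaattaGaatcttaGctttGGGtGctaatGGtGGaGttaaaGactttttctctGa
MT-TS1, light-strand unit, chrM:7446-7514: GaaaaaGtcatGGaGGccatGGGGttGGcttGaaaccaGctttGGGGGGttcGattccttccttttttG
MT-TM, heavy-strand unit, chrM:4402-4469: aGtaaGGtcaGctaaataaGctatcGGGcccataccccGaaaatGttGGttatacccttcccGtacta
MT-ND6, light-strand unit, chrM:14614-14673: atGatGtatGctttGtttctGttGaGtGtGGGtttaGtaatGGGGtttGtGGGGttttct
MT-ND5, heavy-strand unit, chrM:12337-12396: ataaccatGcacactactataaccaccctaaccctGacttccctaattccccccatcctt
The stretch of MT-ND6 holds 21 G and that of MT-ND5 holds 2. Over the whole genes, G made up 35.62% of MT-ND6 and 10.6% of MT-ND5. The genes also run into each other, and MT-ATP8 and MT-ATP6 share 46 bases, shown here with the start codon of MT-ATP6 and the stop codon of MT-ATP8 in capitals.
MT-ATP8 and MT-ATP6, heavy-strand unit, chrM:8527-8572: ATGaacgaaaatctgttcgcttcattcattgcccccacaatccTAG
How the counting treated reads within such shared stretches is not given in the sources used here.

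Total counts per library ran from 1135498 to 2478875, and mitochondrial genes took between 3.14% and 8.73% of them, with a median of 7.08%. The smallest share, and the highest slope of expression on transcript GC content, belonged to replicate 2 of RNF25 KO with azaC. The lowest slope belonged to replicate 2 of untreated AAVS1, a control in many comparisons. EIF2AK4, the gene of GCN2, stood at 14.3 to 27.5 CPM (counts scaled to a common library size) in GCN2 KO libraries, and at 28.5 to 64.6 in the 30 libraries not labelled edited. The RNF25 GCN2 DKO libraries, at 22.4 to 49.2, overlapped the latter, so counts do not check that label. ZNF598 stood at 32 to 47 CPM in ZNF598 KO and at 52.1 to 126 elsewhere. RNF25 had at most 7 counts in any library, edited or not, and eS31 K113R is a change of 1 residue, so counts check neither label. HAP1 derives from a leukaemia line, and of 14 haematopoietic markers 0 reached a mean of 10 counts. Whether counting used strand is not given. Of 707 genes that lie wholly under exons of the opposite strand 28.3% had counts, against 0.101% of 995 under exons of the same strand, so strands were at least in part kept apart.

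The rRNAs took the largest part of mitochondrial counts, with a median of 33.8% over libraries. MT-RNR2, the RNA of the large subunit (chrM:1671-3229), was the most abundant member, with a mean of 26860 counts, and MT-RNR1, that of the small subunit (chrM:648-1601), had 10971. Complex I mRNAs followed with a median of 26.4%, complex IV with 14.9%, tRNA genes with 9.58%, complex V with 8.72% and the complex III mRNA MT-CYB with 4.18%. Nearly all of the tRNA part came from 3 genes, since MT-TP, MT-TS1 and MT-TF held 8.677%, 1.08% and 1.067% of all mitochondrial counts.

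Per length the order was different. In RPKM (CPM on total counts, divided by gene length in kb), MT-TP, the proline tRNA gene of 68 bases, stood highest, with a median of 70792 and a range from 26156 to 213750. MT-ATP8 (chrM:8366-8572, complex V) and MT-ND3 (chrM:10059-10404, complex I) came next, with medians of 26058 and 23082. MT-TP, MT-ATP8 and MT-ND3 are short, at 68, 207 and 346 bases, and the effect of read length on their levels was not tested. Counts at a tRNA gene do not tell the mature tRNA from longer RNAs that span it. The serine tRNA gene MT-TS1 had 11047, MT-RNR2 10756, the phenylalanine tRNA gene MT-TF (chrM:577-647) 10026, MT-CO2 (chrM:7586-8269, complex IV) 8152 and MT-RNR1 7211. The ranges of these last 5 genes over the libraries overlapped. MT-CO3 (chrM:9207-9990, complex IV) stood at 4739 and MT-ND6 (chrM:14149-14673, complex I) at 3043. MT-ND4L (chrM:10470-10766), MT-CYB (chrM:14747-15887) and MT-ND4 (chrM:10760-12137) stood at 2935, 2777 and 2269.

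The lower part held MT-ND1 (chrM:3307-4262) at 1427, MT-ND2 (chrM:4470-5511) at 1224, MT-ND5 (chrM:12337-14148) at 1015, MT-ATP6 (chrM:8527-9207) at 856.2 and MT-CO1 (chrM:5904-7445) at 843 RPKM. The other 7 tRNA genes were MT-TY (chrM:5826-5891, tyrosine) at 924.1, MT-TM (methionine) at 623.7, MT-TL1 (chrM:3230-3304, leucine) at 538.9, MT-TS2 (chrM:12207-12265, serine) at 283.6, MT-TC (chrM:5761-5826, cysteine) at 223.9, MT-TT (chrM:15888-15953, threonine) at 108.5 and MT-TQ (chrM:4329-4400, glutamine) at 94.88. MT-TQ was the least abundant described member, between 2.729 and 15.58 CPM in any library. Untreated it stood at 7.746, 8.982 and 5.78 CPM in AAVS1, at 8.197, 7.578 and 8.888 in RNF25 GCN2 DKO and at 10.7, 12.79 and 8.44 in eS31 K113R. After azaC it was at 3.695, 4.923 and 2.798 in RNF25 GCN2 DKO. Its groups overlapped in every comparison but azaC in RNF25 GCN2 DKO, where the treated libraries were lower without a call. MT-TQ held only 4 to 28 counts in any library.

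Nuclear DNA holds copies of mitochondrial genes, and some members shared much of their sequence with them. Of the 50-base stretches of MT-CO1, 49.5% also occur in other annotated transcripts, and 46.68% of those of MT-ATP6 and 43.61% of those of MT-ND2 do. The copies MTCO1P12, MTATP6P1 and MTND2P28 themselves held 42002, 5884 and 3226 counts in all. The levels of these 3 members are uncertain for that reason. The 6 mRNAs with over 20% shared had a median level per length of 1326 and the 7 others 2935, with Spearman's rho of −0.47 over 13 mRNAs, given as a description. MT-TP and MT-RNR1 shared 0%, and MT-ND6 17.86%.

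**Figure D1:**
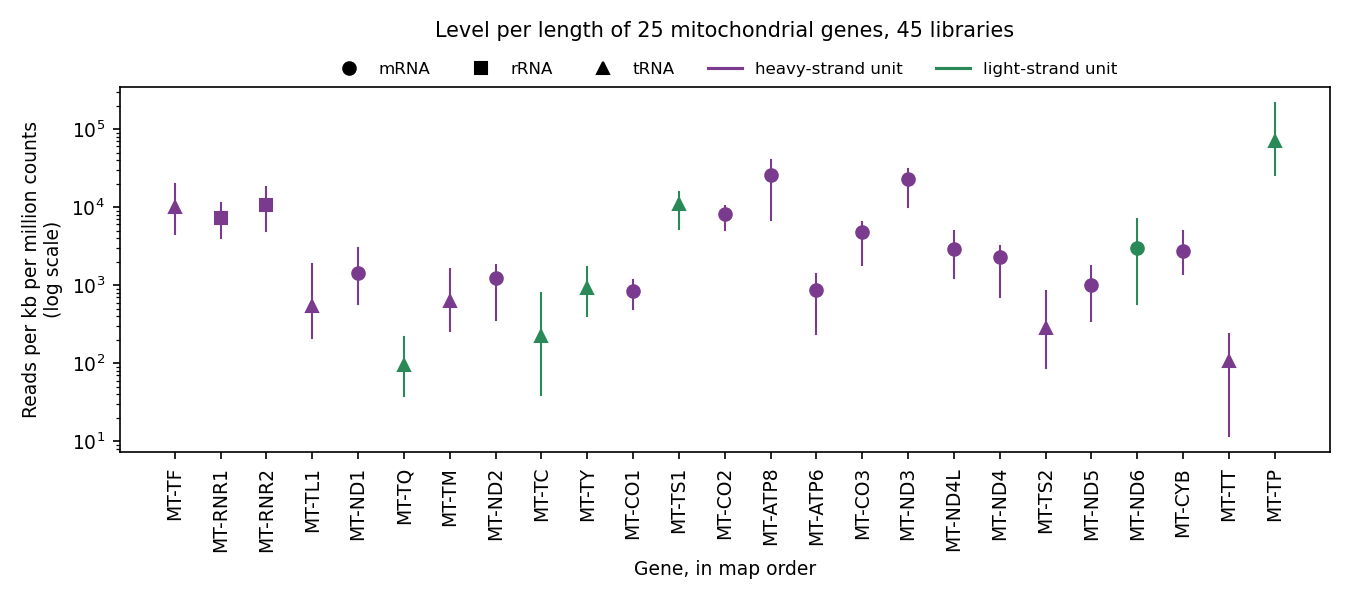
Level per length of the 25 described mitochondrial genes in map order, in RPKM on a log axis. Symbols mark the median of 45 libraries and lines the lowest and the highest; colour gives the transcription unit, and MT-TP stands above the other genes with a median of 70792.

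The lines differed before any treatment in a few members. In untreated RNF25 KO, RNF25 GCN2 DKO and ZNF598 KO cells MT-TP and MT-ND6, a complex I subunit, were lower than in AAVS1, while GCN2 KO and eS31 K113R gave no such call. MT-ND6 stood at 2641, 2359 and 2977 CPM in the untreated AAVS1 libraries. It stood at 1056, 941.4 and 1267 CPM in RNF25 KO, at 1187, 983.7 and 1254 in RNF25 GCN2 DKO and at 861.6, 863.6 and 1251 in ZNF598 KO. Every library of these 3 lines lay below every AAVS1 library.

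The log2 change of MT-ND6 against AAVS1 was −1.29 ± 0.25 (SE) in RNF25 KO (adjusted p = 0.000893), −1.22 ± 0.25 in RNF25 GCN2 DKO (adjusted p = 0.00194) and −1.42 ± 0.25 in ZNF598 KO (adjusted p = 0.00031). In eS31 K113R it stood at 2773, 2116 and 2837 CPM and in GCN2 KO at 3117, 2670 and 3651, overlapping AAVS1. Their changes were −0.05 (95% interval −0.53 to 0.44) and 0.24 (−0.25 to 0.73). Ordered by untreated level, ZNF598 KO, RNF25 KO and RNF25 GCN2 DKO overlapped each other, eS31 K113R, AAVS1 and GCN2 KO overlapped each other, and the gap between RNF25 GCN2 DKO and eS31 K113R was free of libraries.

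MT-TP followed nearly the same order. Untreated AAVS1 libraries held 9741, 8558 and 10568 CPM. Those of RNF25 KO held 4797, 3848 and 5694, those of RNF25 GCN2 DKO 5820, 4258 and 6290, and those of ZNF598 KO 4389, 3757 and 5395. All 9 lay below AAVS1, with log2 changes of −1.01 ± 0.19 (adjusted p = 0.000975), −0.82 ± 0.19 (adjusted p = 0.0135) and −1.09 ± 0.19 (adjusted p = 0.000492). In eS31 K113R MT-TP stood at 10683, 9089 and 10591 CPM, overlapping AAVS1. In GCN2 KO it stood at 14005, 12982 and 15001 CPM, above every other untreated library, but the change of 0.54 ± 0.19 missed the threshold (adjusted p = 0.233). The fit to the libraries of each comparison alone lost the MT-TP calls, with adjusted p of 0.061, 0.275 and 0.107, and in RNF25 GCN2 DKO the call was also lost with GC offsets and without AAVS1 untreated replicate 3 or RNF25 GCN2 DKO untreated replicate 2. The MT-ND6 calls held in all 15 alternatives in each of the 3 lines.

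These were 2 of 25 members lower in RNF25 KO, where 0.668% of all 11078 genes tested were called lower. In RNF25 GCN2 DKO 3 of 25 were lower, against 0.551% of all genes, and in ZNF598 KO 2 of 25, against 0.361%. The third member in RNF25 GCN2 DKO was MT-TF, at 491.8, 490.7 and 363.8 CPM against 923.5, 925.1 and 763 in AAVS1 (log2 change −0.96 ± 0.22, adjusted p = 0.0102). It lost its call without RNF25 GCN2 DKO untreated replicate 3 and in the fit to these 6 libraries alone. In both other lines MT-TF lay below AAVS1 as well without passing, and so did MT-TM in all 3 lines. MT-ND4L lay below AAVS1 in RNF25 KO and ZNF598 KO, MT-ND1 and MT-ND2 in ZNF598 KO, and MT-TS2 in RNF25 GCN2 DKO, without passing. In the other direction, MT-RNR2 lay above AAVS1 in GCN2 KO and in all 3 of these lines, also without passing. In GCN2 KO MT-TP, MT-TF, MT-ND1 and MT-ND4L lay above AAVS1 too, without passing. All these comparisons share the same untreated AAVS1 libraries. The share of all genes whose libraries lie apart in this way was not counted, so these members are given as a description only. The other 4 light-strand members described, MT-TQ, MT-TC, MT-TY and MT-TS1, overlapped AAVS1 in each of these lines. In GCN2 KO and eS31 K113R 0 of 25 members were called by edgeR and by DESeq2, with 4 and 0 at an unadjusted p under 0.05. Without a filter on low counts 1 was called in GCN2 KO, MT-TL1. Members were also called in GCN2 KO with the replicate number added to the fit, as counted in the closing section. In these lines 1.05% and 2.87% of all genes were called.

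The heavy-strand mRNAs set the scale for MT-ND6. MT-ND6 divided by the other 12 mRNAs was 0.0718 ± 0.0137 (SD, n = 3) in untreated AAVS1, 0.0696 ± 0.0116 in eS31 K113R and 0.0792 ± 0.00867 in GCN2 KO. It was 0.0282 ± 0.00344 in RNF25 KO, 0.0332 ± 0.00644 in RNF25 GCN2 DKO and 0.0292 ± 0.00734 in ZNF598 KO. The 6 genotypes differed (permutation test over 18 libraries, adjusted p = 0.0018 over a family of 12 tests), and their mean log2 ratios spanned 1.49.

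Within the heavy-strand unit a second ratio also differed between the lines. MT-ND5 plus MT-CYB, which lie far from the heavy-strand promoter, over MT-ND1 plus MT-ND2, which lie near it, was 1.51 ± 0.211 in untreated AAVS1, 1.32 ± 0.123 in eS31 K113R and 1.1 ± 0.123 in GCN2 KO. It was 2.23 ± 0.232 in RNF25 KO, 2.12 ± 0.198 in RNF25 GCN2 DKO and 2.55 ± 0.37 in ZNF598 KO (permutation test, adjusted p = 0.00024). With MT-ND5 over MT-ND2 alone the call was lost (adjusted p = 0.361). MT-ND1 and MT-ND2 share 22.05% and 43.61% of their 50-base stretches with other transcripts, and the nuclear copies of mitochondrial genes also had higher means in these 3 lines, with some overlap. Those copies summed to 980 ± 62.6 CPM in untreated RNF25 KO, 862 ± 109 in RNF25 GCN2 DKO and 999 ± 213 in ZNF598 KO. They summed to 718 ± 138 in AAVS1, 661 ± 132 in eS31 K113R and 667 ± 93.5 in GCN2 KO (SD, n = 3), and their part in the ratio was not tested. The mitochondrial share itself spanned only 0.34 on the log2 scale between genotypes (adjusted p = 0.125), from 6.65 ± 0.409% in ZNF598 KO to 8.38 ± 0.309% in GCN2 KO.

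A nuclear gene of mitochondrial RNA handling split the lines in the same way. FASTKD2 (chr2:206765357-206792509, GRCh38) encodes a mitochondrial protein known to bind the large rRNA and MT-ND6 mRNA. It had 0, 1 and 0 counts in the untreated AAVS1 libraries, 0 in all 3 of eS31 K113R, and 1, 0 and 0 in GCN2 KO. It had 31, 44 and 22 counts in RNF25 KO, 28, 38 and 23 in RNF25 GCN2 DKO and 10, 22 and 22 in ZNF598 KO. Relative to total counts it was 103 times the AAVS1 level in RNF25 KO (95% interval of counting error 18 to 4091), 83.6 times in RNF25 GCN2 DKO (14.6 to 3341) and 50.4 times in ZNF598 KO (8.67 to 2026). It was called higher in all 3 (adjusted p = 1.4e-06, 3.98e-06 and 0.000145). After azaC or HF it had 0 counts in all 15 libraries of AAVS1, eS31 K113R and GCN2 KO, and 9 to 43 in the 12 of the other lines. Its part in the levels of MT-ND6 and MT-TP was not tested.

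**Figure D2:**
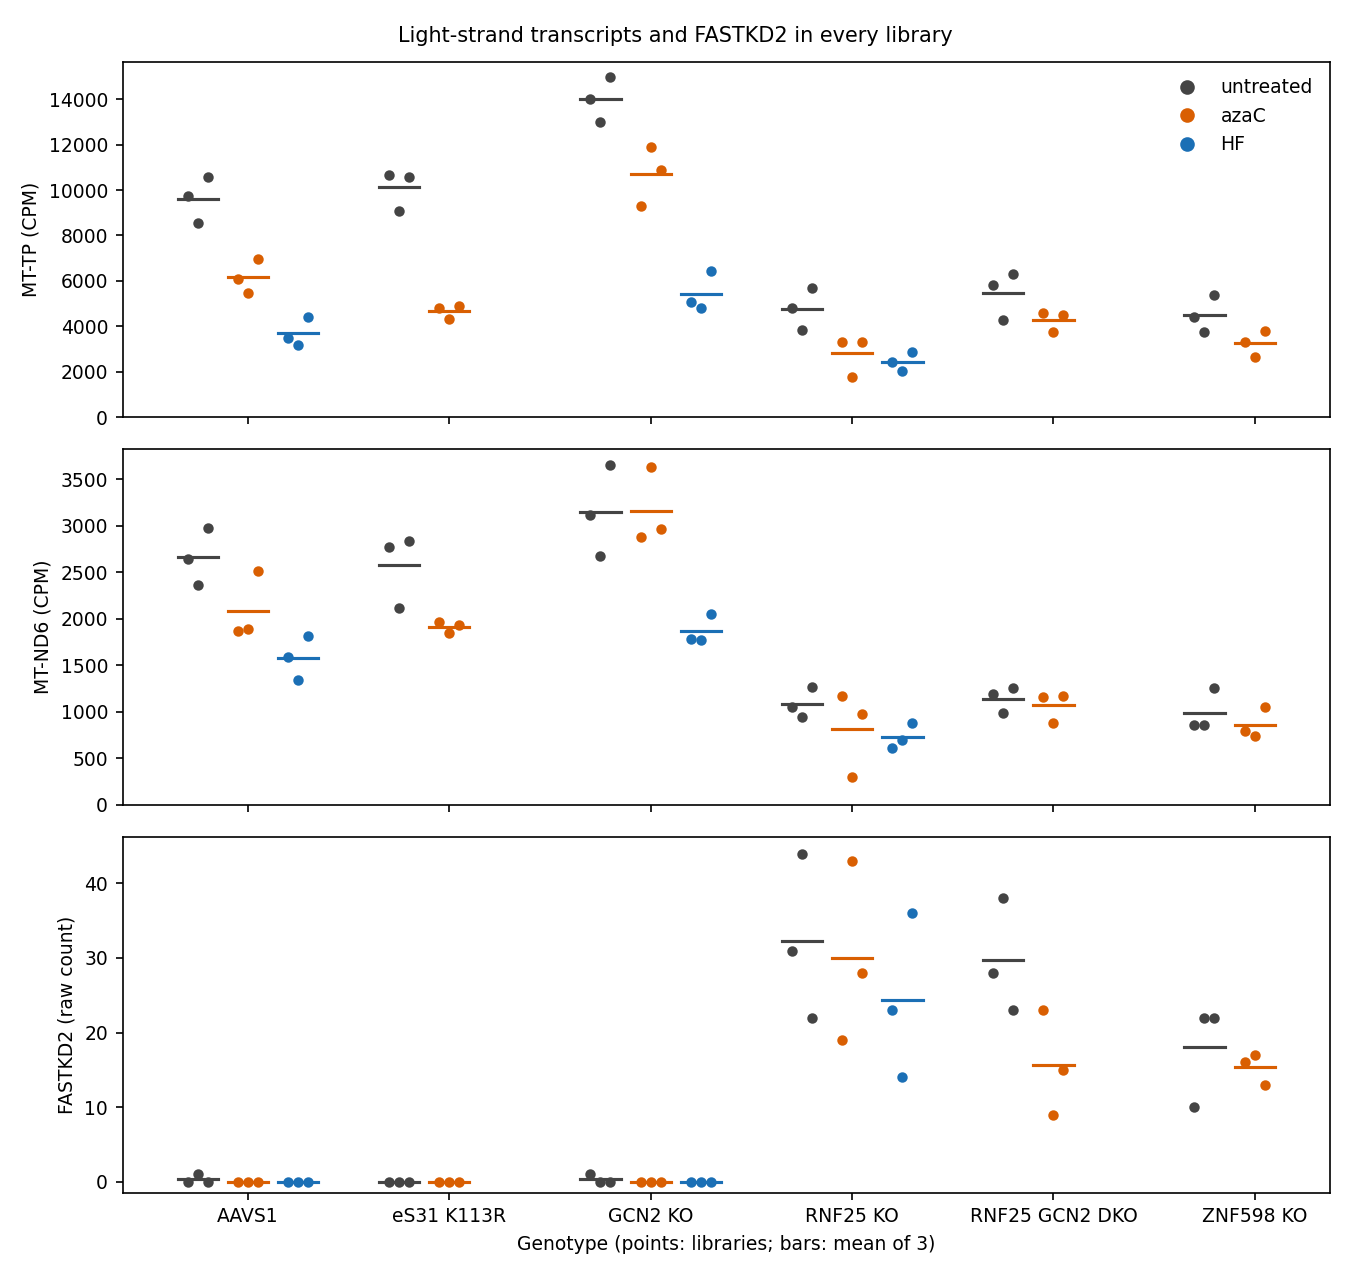
MT-TP and MT-ND6 in CPM and FASTKD2 in raw counts for every library (points) by genotype and treatment, with bars at the mean of 3. MT-ND6 lies at or below 1267 CPM in all libraries of RNF25 KO, RNF25 GCN2 DKO and ZNF598 KO, where FASTKD2 has 9 counts or more.

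Of 183 tested genes on the 6 nuclear lists (mitochondrial DNA expression, mitochondrial ribosomal proteins, and nuclear subunits of complexes I, III, IV and V), few others separated the lines. FASTKD2 was the only one called in RNF25 KO and in ZNF598 KO. In RNF25 GCN2 DKO ATP5ME, a complex V subunit, was also called (−1.17 ± 0.25, adjusted p = 0.00442). In GCN2 KO NDUFA5, a complex I subunit, was higher (1.03 ± 0.17, adjusted p = 0.000163). In eS31 K113R COX7B of complex IV (−1.09 ± 0.19), NDUFA1 of complex I (−1.05 ± 0.25) and HSD17B10, a subunit of mitochondrial RNase P (−0.78 ± 0.21), were lower, with adjusted p of 0.000185, 0.00838 and 0.0222. Of the 183 list genes, 0.546% were called in each of RNF25 KO, GCN2 KO and ZNF598 KO. The share was 1.09% in RNF25 GCN2 DKO and 1.64% in eS31 K113R. Of all 11078 genes tested, 179, 116 and 103 were called in either direction in RNF25 KO, GCN2 KO and ZNF598 KO. In RNF25 GCN2 DKO 157 were called, and in eS31 K113R 318.

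Halofuginone lowered mitochondrial transcripts, and MT-TP most of all. Averaged over AAVS1, RNF25 KO and GCN2 KO, 8 of 25 members were lower and 0 higher, where 3.06% of all genes were called lower. Without AAVS1 HF replicate 1 or RNF25 KO HF replicate 1 there were 5. The median log2 change of the 25 was −0.35, against 0.01 for all genes, and 22 of 25 lay below 0. By transcription unit, 3 of 6 light-strand and 5 of 19 heavy-strand members were called. The mitochondrial share of counts fell by 0.36 on the log2 scale (exact permutation test within genotypes, 9 libraries against 9, adjusted p = 0.003). The groups did not overlap in AAVS1 and GCN2 KO, but did in RNF25 KO (7.15% to 7.85% untreated, 5.17% to 7.3% after HF). When libraries of the same replicate number were set side by side, the share was lower after HF each time. That number tied most pairs of libraries but not all, as given in the closing section.

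MT-TP fell in each of the 3 lines. In AAVS1 it stood at 3496, 3175 and 4416 CPM after HF, below the untreated libraries given above and also below the azaC ones. The log2 change was −1.38 ± 0.20 (adjusted p = 4.17e-06). In GCN2 KO it reached 5052, 4787 and 6439 CPM (−1.37 ± 0.20, adjusted p = 1.74e-05), and in RNF25 KO, which started lower, 2439, 2019 and 2862 CPM (−0.97 ± 0.19, adjusted p = 0.00167). No HF library overlapped the untreated ones of its line. The mean change was −1.24 ± 0.11 (adjusted p = 2.43e-11), and the call held in all 27 alternatives. The response of RNF25 KO differed from that of AAVS1 by 0.41 (95% interval −0.14 to 0.96, adjusted p = 1) and that of GCN2 KO by 0.01 (−0.54 to 0.56, adjusted p = 1).

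MT-ND6 also fell with HF on average, with a log2 change of −0.69 ± 0.14 (adjusted p = 0.000694). It stood at 1593, 1337 and 1813 CPM in AAVS1, at 610.8, 699.7 and 883.3 in RNF25 KO and at 1780, 1775 and 2046 in GCN2 KO, all below the untreated libraries of the same line. No line passed alone, with adjusted p of 0.122, 0.329 and 0.144. Its ratio to the sum of the other 12 mRNAs fell by 0.42 (exact permutation test, adjusted p = 0.00375). The differences by line were −0.70 in AAVS1, −0.26 in RNF25 KO and −0.29 in GCN2 KO. MT-TY, another light-strand gene, changed by −0.43 ± 0.14 (adjusted p = 0.0404), a call lost in 13 of 27 alternatives. Those were the analysis without a filter, the fit to these libraries alone, and leaving out AAVS1 untreated replicate 3, any AAVS1 HF replicate, untreated replicate 2 or 3 of RNF25 KO or GCN2 KO, HF replicate 1 or 3 of RNF25 KO, or HF replicate 3 of GCN2 KO. In AAVS1 its libraries held 64.55, 59.38 and 86.06 CPM untreated, then 58.97, 62.75 and 61.11 with HF. In RNF25 KO it went from 38.65, 64.66 and 65.44 to 36.52, 40.98 and 30.55, and in GCN2 KO from 71.21, 99.18 and 118.3 to 80.09, 79.83 and 51.23. The groups overlapped in all 3 lines. MT-TS1, also a light-strand gene, was not called on the mean HF response. Its HF libraries lay below the untreated ones in each of these lines. The share of all genes that lie apart in this way was not counted.

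Of the heavy-strand mRNAs, MT-ND1, the complex I subunit nearest the promoter, changed most with HF (mean −0.78 ± 0.16, adjusted p = 0.00101). In GCN2 KO it went from 2741, 2583 and 2985 CPM to 1122, 1422 and 1429, with no overlap (−1.06 ± 0.28, adjusted p = 0.047). In AAVS1 it stood at 1048, 1100 and 1666 CPM against 1991, 1264 and 2297, and in RNF25 KO at 522.4, 702.9 and 1145 against 1338, 1057 and 1537. Both of these pairs overlapped. The GCN2 KO call was lost when any 1 of its 6 libraries was left out, with adjusted p up to 0.272, while the mean call held in all 27 alternatives.

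MT-CO1, the catalytic subunit of complex IV, changed by −0.42 ± 0.12 (adjusted p = 0.0166) and MT-ND4L of complex I by −0.41 ± 0.12 (adjusted p = 0.0264). MT-CO1 in GCN2 KO stood at 1613, 1616 and 1767 CPM untreated and 972.4, 1272 and 1015 after HF. It overlapped in AAVS1, where it was at 1487, 1122 and 1690 against 1027, 1153 and 1391, and in RNF25 KO, where it was at 1338, 1202 and 1436 against 786.3, 1067 and 1229. MT-ND4L in AAVS1 went from 922.7, 923.1 and 998 CPM to 633.2, 713 and 921.8, in RNF25 KO from 902.6, 853.1 and 875 to 530.7, 537.1 and 778, and in GCN2 KO from 1174, 1110 and 1077 to 769.7, 872 and 924.1. Its groups did not overlap in any of the 3 lines. The MT-CO1 call was lost without AAVS1 untreated replicate 3 or RNF25 KO HF replicate 1, and the MT-ND4L call without GCN2 KO untreated or HF replicate 1, or HF replicate 1 or 2 of AAVS1 or RNF25 KO. The other 9 mRNAs were not called and lay between −0.38 (MT-ND2) and −0.09 (MT-ND5).

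MT-TM, the methionine tRNA gene between MT-TQ and MT-ND2, changed by −1.05 ± 0.20 on average (adjusted p = 0.000218). In AAVS1 it stood at 70.58, 100.8 and 59.08 CPM untreated and at 42.68, 26.62 and 42.62 after HF. In RNF25 KO it stood at 41.87, 57.2 and 40.51 and at 17.08, 18.28 and 21.45, and in GCN2 KO at 111.2, 75.52 and 70.04 and at 64.49, 33.16 and 51.23. The HF libraries lay below the untreated ones in all 3 lines. RNF25 KO also passed alone (−1.30 ± 0.36, adjusted p = 0.0478), but not when any 1 of its 6 libraries was left out (adjusted p up to 0.205).

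The rRNA MT-RNR1 changed by −0.46 ± 0.14 (adjusted p = 0.0314), a call lost without untreated replicate 2 of any of the 3 lines, HF replicate 1 or 3 of AAVS1 or GCN2 KO, or HF replicate 3 of RNF25 KO, and without both libraries at the ends of the GC slope. In AAVS1 it went from 6606, 10199 and 6898 CPM to 5391, 7091 and 4286. It was at 5659, 9329 and 5764 against 5621, 6815 and 3867 in RNF25 KO, and at 8576, 10542 and 8932 against 6542, 7608 and 5300 in GCN2 KO. Replicate 2 was the highest in each of these 6 groups. MT-RNR2 was not called. It stood at 15944, 15019 and 15134 CPM in untreated AAVS1 and 12580, 15075 and 11295 after HF, and at 16835, 20078 and 19284 and 10969, 14361 and 9300 in GCN2 KO. In RNF25 KO it stood at 19067, 28140 and 19588 and at 16070, 27466 and 16323.

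Counted by line, HF lowered 1 of 25 members in AAVS1 (0.487% of all genes were called lower), 2 of 25 in RNF25 KO (0.506%) and 2 of 25 in GCN2 KO (0.506%). These counts moved with the settings. In AAVS1 3 members were called without a filter on low counts, and 2 without both libraries at the ends of the GC slope. In GCN2 KO 7 were called in the fit to its own libraries and 5 without a filter or without both libraries at the ends of the GC slope. Leaving out any 1 library of RNF25 KO or of GCN2 KO left 1 member, MT-TP, in that line. No member differed from AAVS1 in its HF response by edgeR or DESeq2, with 0 at an unadjusted p under 0.05 in either line. Of all genes 0% and 0.334% differed.

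The ratio of promoter-distal to promoter-proximal mRNAs rose with HF, by 0.36 on the log2 scale (exact permutation test, adjusted p = 0.009). It went from 1.51 ± 0.211 to 1.88 ± 0.279 (SD, n = 3) in AAVS1, from 2.23 ± 0.232 to 2.75 ± 0.551 in RNF25 KO and from 1.1 ± 0.123 to 1.52 ± 0.195 in GCN2 KO, where alone the groups did not overlap. With MT-ND5 over MT-ND2 the adjusted p was 0.166. The ratio of rRNAs to mRNAs differed by −0.11 (adjusted p = 0.659), and its sign split by replicate number: higher after HF in 3 of 3 lines for replicate 1 and lower in 3 of 3 for replicates 2 and 3.

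Sums of histone mRNAs and of nuclear-retained RNAs, taken as library measures, had higher means after HF in each line. Only the histone sums in AAVS1 did not overlap. Replication-dependent histone mRNAs, which lack polyA tails, summed to 1405 to 3133 CPM in untreated AAVS1 and to 4078 to 7990 after HF. In RNF25 KO the sums were 1282 to 3105 and 2572 to 7807, and in GCN2 KO 1844 to 4650 and 2913 to 7337. Of 66 such genes 48 had a count and 9 a mean of at least 10, and H4C3 alone held 81% of the list's counts. Without H4C3, a gene singled out after its values were seen, the sums were 209 to 561 CPM in untreated AAVS1 and 743 to 1418 after HF, and the HF libraries overlapped the untreated ones in RNF25 KO (214 to 653 against 601 to 1460) and in GCN2 KO (209 to 718 against 673 to 1460). Nuclear-retained RNAs summed to 1742 to 4449 CPM in untreated AAVS1 and to 2511 to 4928 after HF. In RNF25 KO the sums were 1664 to 4689 and 2032 to 5175, and in GCN2 KO 1991 to 3896 and 1818 to 4297. Their part in the falls of MT-TP and the other members was not tested.

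**Figure D3:**
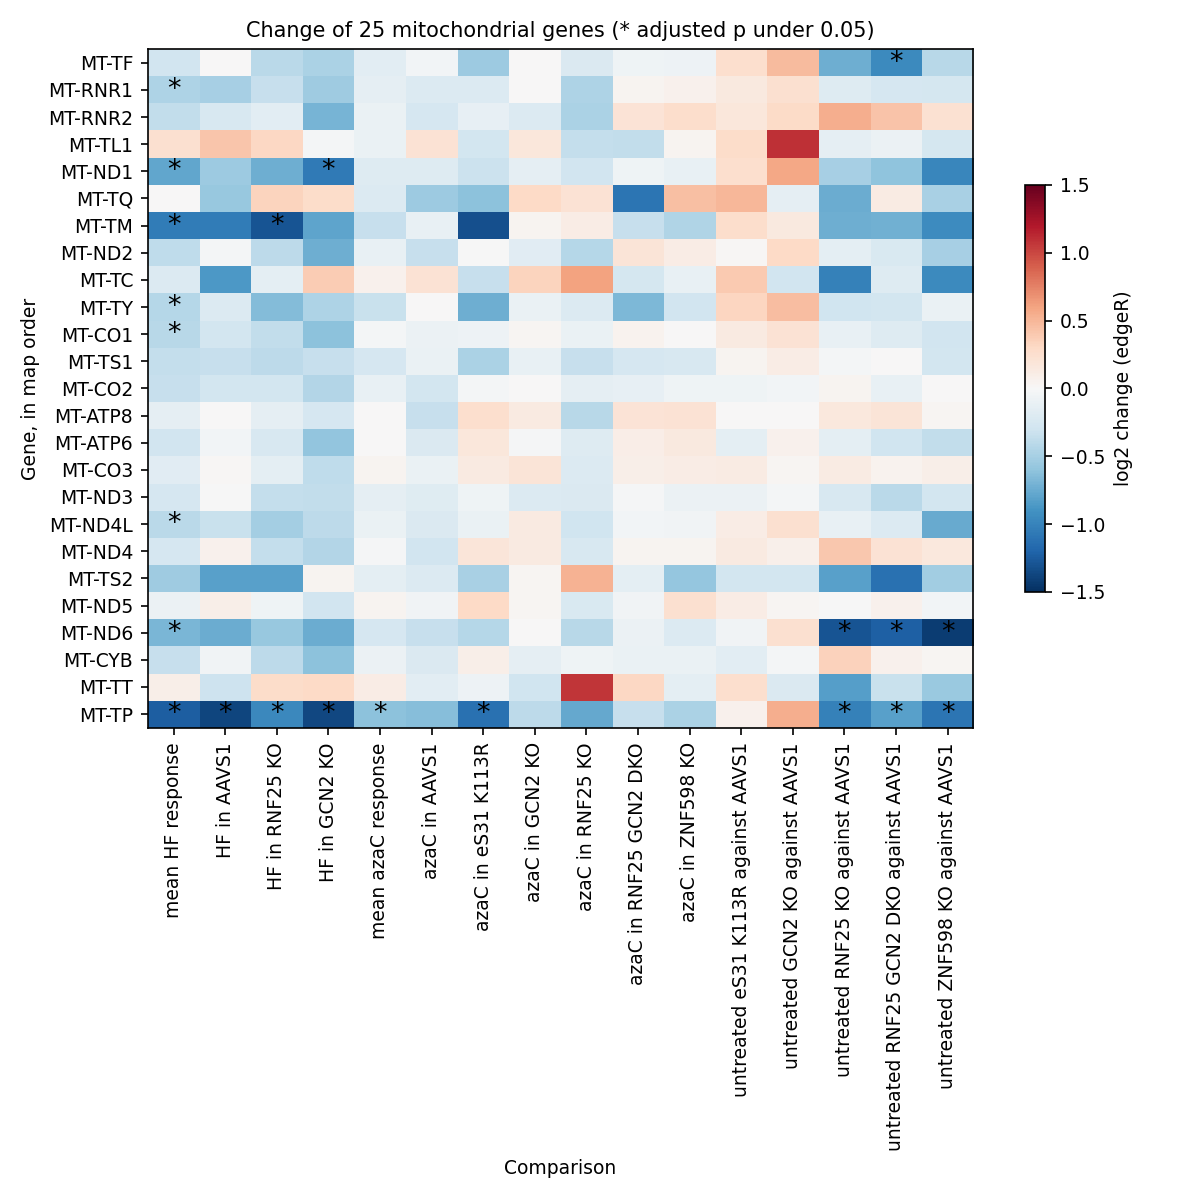
Log2 change of the 25 described genes (rows, in map order) in 16 comparisons (columns), with an asterisk at an adjusted p under 0.05 by edgeR. MT-TP is called lower in both mean responses, in the 3 HF columns, with azaC in eS31 K113R and in 3 untreated lines. MT-ND6 is called lower in the mean HF response and the same 3 untreated lines.

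The share of nuclear list genes called with HF was near that of all genes. On the mean response 9 of 183 nuclear list genes were lower, 4.92%, against 3.06% of all genes tested, and 2 were higher. In all, 6.01% were called, against 7.52% of all genes. The median log2 change was −0.07 for complex I, −0.14 for complex III, −0.11 for complex IV and −0.16 for complex V, against 0.01 for all genes. It was −0.09 for mitochondrial ribosomal proteins and −0.03 for mitochondrial DNA expression. FASTKD5 (−0.76 ± 0.16, adjusted p = 0.00084), a factor for processing mitochondrial precursors at sites without tRNAs, and FASTKD1 (−0.51 ± 0.14, adjusted p = 0.0195) were lower. MGME1, a mitochondrial DNA nuclease (0.51 ± 0.12, adjusted p = 0.00405), and PTCD2 (0.60 ± 0.15, adjusted p = 0.00923) were higher. NDUFB9 of complex I was lower on average (−0.54 ± 0.10, adjusted p = 0.000102), a mean that rested on GCN2 KO. In AAVS1 its mean was 392.4 CPM untreated and 392 after HF, and in RNF25 KO 416.3 and 390.8. Both of these pairs overlapped. In GCN2 KO alone it passed in a single line, with 461.4, 472.2 and 412.4 CPM untreated and 122.6, 126.5 and 217.4 after HF, a response that differed from AAVS1 by −1.52 ± 0.24 (adjusted p = 7.43e-05). The complex IV subunits COX7B and COX6B1 changed by −0.45 ± 0.11 and −0.42 ± 0.13, and the ribosomal protein MRPS23 by −0.45 ± 0.10 (adjusted p = 0.005, 0.0299 and 0.0015). Falls also passed in NDUFB4 of complex I (−0.43 ± 0.13), ATP5MC3 of complex V (−0.32 ± 0.08) and the ribosomal protein MRPL3 (−0.38 ± 0.11), with adjusted p of 0.0359, 0.012 and 0.0227.

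With azacytidine MT-TP was the only member called on average by edgeR, and DESeq2 called MT-TP and MT-TY. The mean change over 6 genotypes was −0.62 ± 0.08 (adjusted p = 3.44e-07), and the call held in all 46 alternatives. A second member passed, beside MT-TP, without replicate 1 of untreated RNF25 KO, GCN2 KO or RNF25 GCN2 DKO, RNF25 KO azaC replicate 1 or 2, or RNF25 GCN2 DKO azaC replicate 2. Without both libraries at the ends of the GC slope MT-TM passed beside it. MT-TP was 1 of 25 members, where 0.172% of all genes were called lower. The median of the 25 was −0.11, and 20 lay below 0. The azaC and HF comparisons share their untreated libraries in 3 lines, so their values are given side by side only.

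In AAVS1 MT-TP stood at 6099, 5449 and 6974 CPM after azaC, all below the untreated libraries (−0.64 ± 0.19, adjusted p = 0.704). In eS31 K113R it stood at 4817, 4314 and 4881, a change of −1.12 ± 0.20 (adjusted p = 0.0004), and this was the only line that passed alone. In RNF25 KO it stood at 3316, 1769 and 3321 (−0.77 ± 0.19, adjusted p = 0.0522), and in GCN2 KO at 9288, 11891 and 10897 (−0.39 ± 0.19). Both of these groups lay below their untreated libraries. In RNF25 GCN2 DKO it stood at 4597, 3747 and 4505 and in ZNF598 KO at 3303, 2669 and 3789, overlapping the untreated libraries, with changes of −0.35 ± 0.19 and −0.47 ± 0.19. The lowest value, 1769, came from the RNF25 KO library with the smallest mitochondrial share.

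Called members numbered 1 of 25 in eS31 K113R, against 0.0451% of all genes called lower, and 0 of 25 in the other 5 lines. There 0.117% of all genes were called in AAVS1, 0.469% in RNF25 KO, 0% in GCN2 KO, 0% in RNF25 GCN2 DKO and 0.117% in ZNF598 KO. At an unadjusted p under 0.05 stood 1, 2, 0, 1 and 1 members, and of these lines DESeq2 called a member only in RNF25 KO. It was MT-TP, which also passed without RNF25 KO untreated replicate 2 or azaC replicate 1 or 3. With the replicate number added to the fit, 1 member passed in AAVS1 and 1 in RNF25 KO. MT-TM in eS31 K113R was at 34.92, 40.49 and 35.68 CPM after azaC and at 120.7, 90.17 and 66.75 without it, with no overlap and an adjusted p of 0.0521. It passed with DESeq2 and without eS31 K113R untreated replicate 3.

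No member differed from AAVS1 in its azaC response by edgeR or DESeq2. At an unadjusted p under 0.05 stood 0 in RNF25 KO, GCN2 KO and ZNF598 KO, 1 in RNF25 GCN2 DKO and 2 in eS31 K113R. Of all genes 0%, 0.00903%, 0%, 0.0451% and 0.00903% differed in these 5 lines. For MT-TP the difference in eS31 K113R was −0.48 (95% interval −1.02 to 0.07), so its call in that line is not shown to set the line apart.

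MT-ND6 was not called with azaC (mean −0.25 ± 0.10, adjusted p = 0.279). Its libraries held 1863, 1886 and 2508 CPM in AAVS1, 1964, 1848 and 1930 in eS31 K113R and 2877, 3634 and 2968 in GCN2 KO. They held 1168, 302.6 and 973.7 in RNF25 KO, 1155, 881.2 and 1170 in RNF25 GCN2 DKO and 790.4, 738.9 and 1049 in ZNF598 KO. The 3 lines low in MT-ND6 without treatment were again below the others. The ratio of MT-ND6 to the other mRNAs changed by −0.21 with azaC (permutation test, 18 libraries against 18, adjusted p = 0.0402), and the adjusted p was 0.0673 without RNF25 KO azaC replicate 2. The mitochondrial share changed by −0.12 (adjusted p = 0.165), the distal-to-proximal ratio by 0.12 (adjusted p = 0.0842) and the rRNA-to-mRNA ratio by −0.04 (adjusted p = 0.792). Of the 183 nuclear list genes 0 were called with azaC on average by edgeR and 1 by DESeq2, where 1.15% of all genes were.

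The rRNA-to-mRNA ratio varied more by replicate number than by genotype or drug. In untreated libraries it ran from 0.455 to 1.08, and replicate 2 was the highest of its group in all 6 lines, at 0.802 or above. The difference after azaC was positive for replicate 1 in 6 of 6 lines and negative for replicate 2 in 5 of 6. Nuclear-retained RNAs were highest in replicate 2 in all 6 untreated groups as well, at 3896 to 4689 CPM. Whether the 2 observations are linked was not tested.

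**Figure D4:**
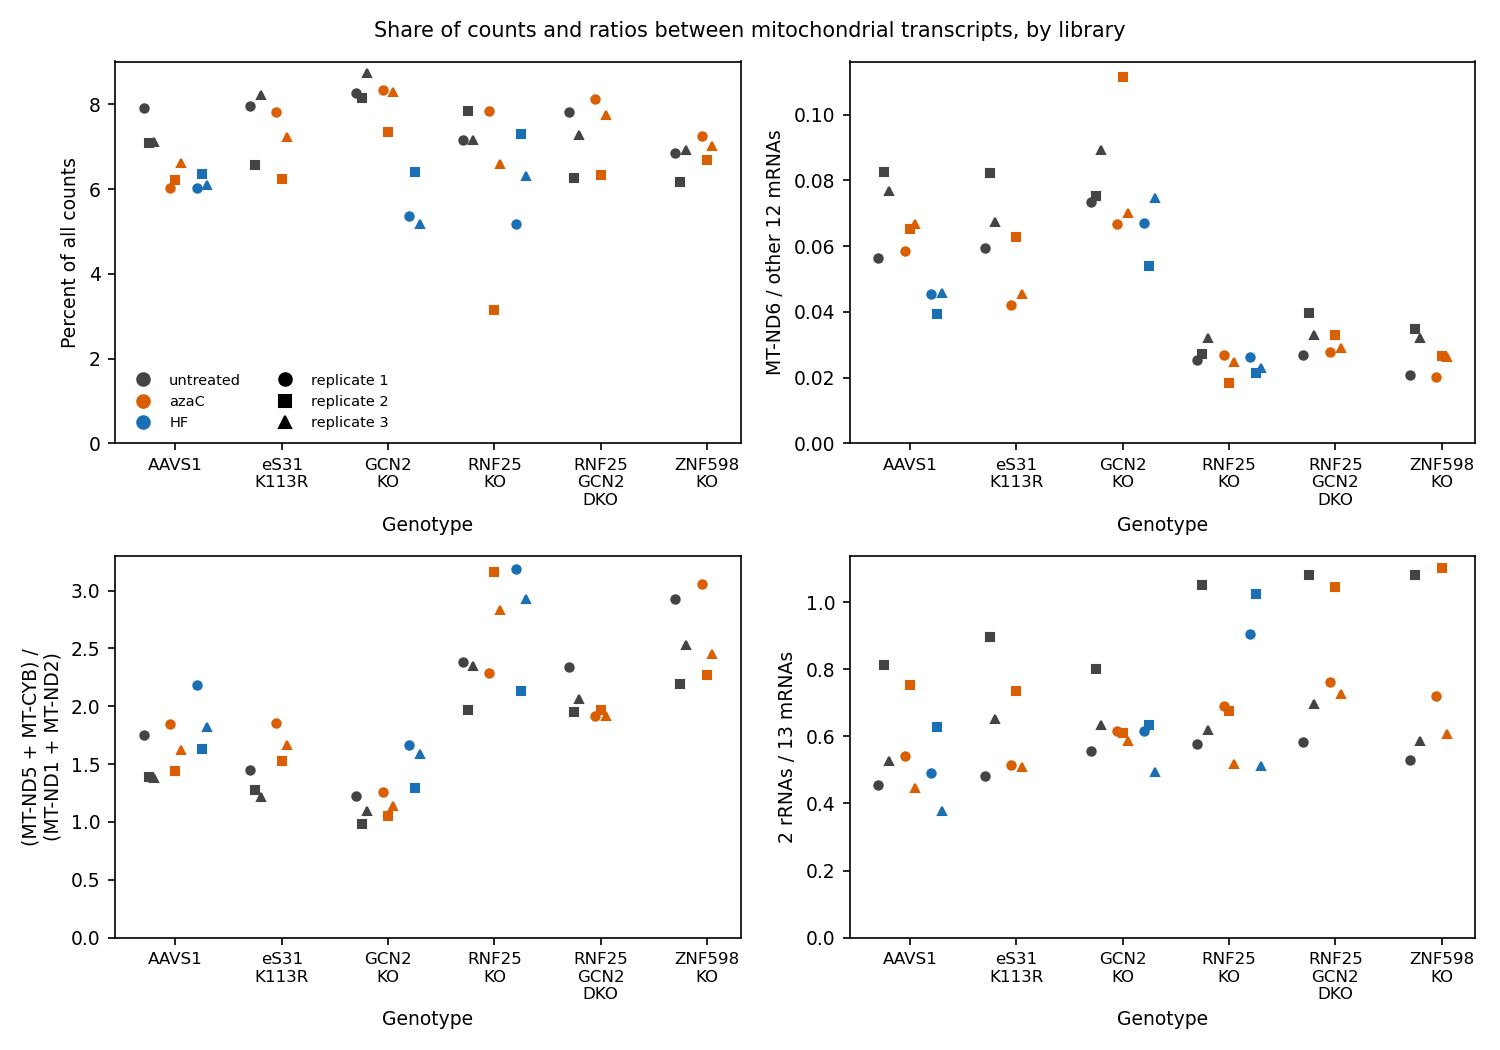
Mitochondrial share of all counts and 3 ratios between mitochondrial transcripts for every library, by genotype, treatment (colour) and replicate number (symbol). Within each treatment RNF25 KO, RNF25 GCN2 DKO and ZNF598 KO lie apart from the other lines in the ratio of MT-ND6 to the other mRNAs. Replicate 2 is highest in the rRNA-to-mRNA ratio of every untreated group.

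Several tRNA genes showed wide spread at low counts. MT-TT stood 1.07 higher with azaC in RNF25 KO (−0.08 to 2.22, adjusted p = 0.576). For MT-TS2 the log2 change in untreated RNF25 GCN2 DKO was −1.12 (−2.08 to −0.16, adjusted p = 0.402). Of the members below the limit of 10 counts, MT-TH, the histidine tRNA gene, was at 0.6648, 1.725 and 0.5298 CPM in untreated ZNF598 KO, against 12.91, 11.48 and 6.422 in AAVS1, and did not pass (adjusted p = 0.0622).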

How the data were processed

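The authors deposited raw counts per gene. The submitters' processing notes name STAR 2.7.10b, HTSeq 0.9.1 and the build GRCh38. RNA was extracted with a Maxwell RSC kit and made into CORALL mRNA-Seq V2 libraries, per the labels. Which annotation release and strand setting were used, and whether molecular identifiers were, is not given in the sources used here. The title and genotype labels of untreated eS31 K113R replicates 2 and 3 name another edit, so both were grouped by the column name in their description. All 45 sample columns were used and 0 were left out.

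Counts were tested with edgeR 4.0.16 in R 4.3.3 by the quasi-likelihood test, with filterByExpr at a minimum count of 10 (11078 genes), TMM scaling, and 15 group means over all libraries. Changes are log2 fold changes ± SE, and tests are two-sided. Benjamini-Hochberg adjustment ran within each of 23 comparisons over all genes, with a threshold of 0.05. CPM uses TMM-scaled library sizes, except for library checks and target genes, which use total counts. Ratios per library were tested by permutation with 100000 resamples for azaC and genotype, and exactly for HF. Levels per length are RPKM. Positions and sequences come from GENCODE 29. Tests were checked on simulated data. Alternatives included DESeq2 1.42.0, RLE, nuclear scaling, no filter, GC offsets, a replicate block and leaving out libraries.

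The members and gene lists were chosen with earlier results of these data known. Values are given per library for mRNAs or rRNAs called in any comparison, for MT-ND6, for the most abundant member, and for the least abundant in part. The called tRNAs were added to these after their values were seen. Of the nuclear lists, genes that passed in any comparison are named, 5 a list by size of change. FASTKD1, the sixth of the mitochondrial DNA expression list, was added after its value was seen.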

Additional observations from a re-analysis of the deposited data

How the results depend on the processing

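Under every alternative run, the calls of MT-ND6 in untreated RNF25 KO, RNF25 GCN2 DKO and ZNF598 KO, of MT-TP with HF in each line, with azaC in eS31 K113R and on both mean responses, and of MT-ND6, MT-ND1 and MT-TM on the mean HF response were kept. Leaving out both libraries at the ends of the GC slope was added after seeing the data. Where counts below differ from those reported, the cause was not tested, except that leaving out a library leaves fewer samples.

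Without a filter on low counts, members called numbered 1 for azaC in RNF25 KO, 2 for azaC in eS31 K113R, 3 for HF in AAVS1, 5 for HF in GCN2 KO, 1 for untreated GCN2 KO and 5 for untreated ZNF598 KO. DESeq2 called 1 for azaC in RNF25 KO, 2 for azaC in eS31 K113R and 2 on the mean azaC response. Scaling on nuclear genes gave 1 for azaC in RNF25 KO and 2 for azaC in eS31 K113R, where GC offsets also gave 2. Fits to the libraries of each comparison alone gave 2 for azaC in eS31 K113R, 7 for HF in GCN2 KO, and 1 each for untreated RNF25 KO, RNF25 GCN2 DKO and ZNF598 KO. Without both libraries at the ends of the GC slope the counts were 2 for azaC in eS31 K113R, 2 for HF in AAVS1, 5 for HF in GCN2 KO, 4 for untreated ZNF598 KO and 2 on the mean azaC response, and the azaC difference in the MT-ND6 ratio was −0.17.

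Same-numbered libraries deviated together (r over 0.1) in 21 of 27 pairs, with r from −0.0443 to 0.37. The own number was the best match in 24 of 27, so most pairs shared a deviation, though not all. The calls above make no allowance for this, since the main fit left out the number. With it as a replicate block, members called numbered 1 for azaC in AAVS1, 1 for azaC in RNF25 KO, 2 for azaC in eS31 K113R, 3 for HF in AAVS1, 4 for HF in GCN2 KO, 3 for untreated GCN2 KO, 4 for untreated ZNF598 KO and 2 on the mean azaC response. With GC offsets and the replicate block together they numbered 1 for azaC in RNF25 KO, 2 for azaC in eS31 K113R, 4, 5 and 6 for HF in AAVS1, RNF25 KO and GCN2 KO, 3 for untreated GCN2 KO, 4 for untreated ZNF598 KO, 4 on the mean azaC and 13 on the mean HF response. The block also took the distal-to-proximal azaC difference of 0.12 past the threshold (adjusted p = 0.047).

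Leaving out 1 library gave 0 to 1 members for azaC in RNF25 KO, 1 to 2 for azaC in eS31 K113R, 1 each time for HF in RNF25 KO and in GCN2 KO, 1 to 2 on the mean azaC and 5 to 9 on the mean HF response. Leaving out libraries, 1 at a time or all of 1 replicate number, the share with HF ranged from −0.44 to −0.29, the MT-ND6 ratio from −0.28 to −0.16 with azaC, from −0.56 to −0.31 with HF and from 1.47 to 1.64 between genotypes, and the distal-to-proximal ratio from 0.09 to 0.17 with azaC, from 0.32 to 0.41 with HF and from 1.19 to 1.23 between genotypes. With MT-ND5 over MT-ND2 the last was 0.33 with HF and 0.71 between genotypes. The rRNA-to-mRNA ratio ranged from −0.19 to 0.06 with azaC and from −0.31 to 0.03 with HF. It turned positive with azaC without replicate 2 (0.06) or replicate 3 (0.01) and with HF without replicate 3 (0.03).

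Of nuclear list genes, the replicate block called 18 on the mean HF and 2 on the mean azaC response, 6 and 8 for HF in AAVS1 and RNF25 KO, and 3, 2 and 5 in untreated RNF25 KO, ZNF598 KO and eS31 K113R. Without a filter 1 was called on the mean azaC response, 2 and 1 for HF in RNF25 KO and GCN2 KO, and 2 and 4 in untreated RNF25 KO and ZNF598 KO. DESeq2 called 1 on the mean azaC response and 1 and 3 for HF in AAVS1 and RNF25 KO.

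Members under about 100 counts a library, most of the tRNAs, had the widest errors, and a missing call for them says little.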
